A study of Mus musculus with 18 samples.

Results

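Thyroids that had received the 2 highest absorbed doses of the study, 11.2 and 32.4 Gy, were compared with thyroids that had received the 2 lowest, 0.05 and 0.5 Gy. The comparison used 12 of the 18 arrays, 3 for each of 4 pools of RNA, and the quantity reported is the mean of both high pools minus the mean of both low pools, called the high minus low difference, on the log2 scale. Where 2 values are given for the low or the high pools, the lower dose comes first. The arrays were chosen by their labelled dose and by no measured value. Of the 25697 probes with values, 10455 were tested, which are those detected (detection p under 0.01) on all 3 arrays of at least 1 of the 4 pools.

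The animals were 6-month-old females of the BALB/c nude strain, which lacks a functional thymus. They were injected intravenously with 211At, an alpha-emitting halogen that the thyroid takes up, and were killed after 24 h. The non-irradiated controls (0 Gy) were treated with an empty syringe, and a sixth group received 1.4 Gy. The 21 mice fell into 6 groups, RNA was taken from the combined thyroids of a group, and 3 MouseRef-8 beadchip arrays were run for each pool. The 3 arrays of a pool therefore share 1 RNA, so the p-values below measure the spread between arrays and leave out the spread between mice. The fits with 1 value per pool or with the pool as a random block, and the permutation of pools, use differences between pools instead. Each dose had 1 pool, and the pools of a side differed in dose. Differences between those pools therefore mix dose, mice and handling, and no fit here measures the spread between mice alone.

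The thyroid of a mouse is a very small organ that lies against the trachea, muscle, fat and the salivary glands of the neck. Follicular cells make thyroid hormone on the protein thyroglobulin (Tg), after iodide has entered through the sodium iodide symporter (Slc5a5). Brown fat, which is also found in the neck, burns fatty acids in mitochondria and gives off heat through the uncoupling protein Ucp1. Submandibular and parotid glands secrete kallikreins, amylase and other saliva proteins. In response to double-strand breaks, irradiated cells switch on targets of the transcription factor p53 such as the cell cycle inhibitor Cdkn1a.

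The numbers of detected probes overlapped, with 9895 to 10897 on the high arrays and 9737 to 10995 on the low ones. Raw signals differed before normalization. The raw upper quartile was 194.5 to 213.9 at 0.5 Gy, 138.5 to 168.6 at 0.05 Gy and 148.3 to 175.9 on the high arrays. The correlation between arrays of a pool was 0.991 to 0.997. Several defining genes of the labelled tissue were not detected. Probes for Tg, Slc5a5, Pax8, Nkx2-1, Foxe1 and Duox2 were detected on 0 of 18 arrays. Of the 16 genes of the thyroid follicular list with a probe, 3 were tested, Tshr, Slc5a8 and Hhex, and none was called. Slc5a8 and Hhex each had a probe that was detected on 18 of 18 arrays. Pth, the parathyroid hormone gene, was detected on 0 of 18 arrays. The TSH receptor gene Tshr was detected on 4 of the 12 compared arrays, all of them of the low pools, and was not called. Genes of other tissues were strongly expressed. The summed normalized signal of 22 submandibular genes was 322246 to 378879 on the 12 arrays, and that of 10 brown fat genes was 21801 to 63341. The values below therefore describe the dissected tissue as a whole, in which fewer cells of a type and less RNA per cell cannot be told apart.

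Between the high and low pools 398 probes were called (3.81% of those tested) by limma at a Benjamini-Hochberg adjusted p under 0.01 and at least 1.5-fold. Of these, 233 (2.23%) were higher and 165 (1.58%) lower in the high pools. They represent 197 and 141 named genes. The shares of all probes, 3.81% called, 2.23% higher and 1.58% lower, stand beside the counts of every gene list below. The median difference over all tested probes was −0.01, and the largest differences were 3.03 and −3.53. The share of calls that were higher, 58.5% here, was 45.8% with 75th-percentile scaling, 16.5% with no normalization and 99.0% in the deposited normalized table, in which the median difference of all probes was 0.44. In that table the 0.05 and 0.5 Gy arrays form a set with 1 distribution and all other arrays form another, so the low pools and that array set cannot be told apart.

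The 4 pools were not equally far apart. Each high pool was also compared with each low pool, and 232 probes (2.22%) were called for 11.2 against 0.05 Gy, 394 (3.77%) for 32.4 against 0.05 Gy, 667 (6.38%) for 11.2 against 0.5 Gy and 1095 (10.5%) for 32.4 against 0.5 Gy. Pools on the same side also differed. Between 32.4 and 11.2 Gy 184 probes (1.76%) were called, 122 (1.17%) of them higher and 62 (0.593%) lower at 32.4 Gy. Between 0.5 and 0.05 Gy the count was 269 (2.57%), with 123 (1.18%) higher and 146 (1.4%) lower at 0.5 Gy. Of the 398 probes, 61 were also called between the high pools and 133 between the low pools, while 220 were called in neither. When each pool was reduced to 1 value, limma on 2 against 2 pools called no probe at an adjusted p under 0.01. Its smallest adjusted p was 0.0596, and 1885 probes had an unadjusted p under 0.05. The 6 high and the 6 low arrays did not overlap for 1441 probes (13.8%), with the high arrays above for 786 (7.52%) and below for 655 (6.26%), and 312 of the 398 were among them. In all, 75 probes (0.717%), 50 higher (0.478%) and 25 lower (0.239%), were called in the same direction in all 4 pairwise contrasts, and these are described first. Named genes with several probes are given by 1 of them. A further probe was not called for Etfa (2 of 4 probes called), Elf5 (2 of 3), Cpa3 (2 of 3), Pparg, Ccnd1 and Vldlr (1 of 3 each), and Lyz2, Cox6b1 and Aqp5 (1 of 2 each).

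**Figure D1:**
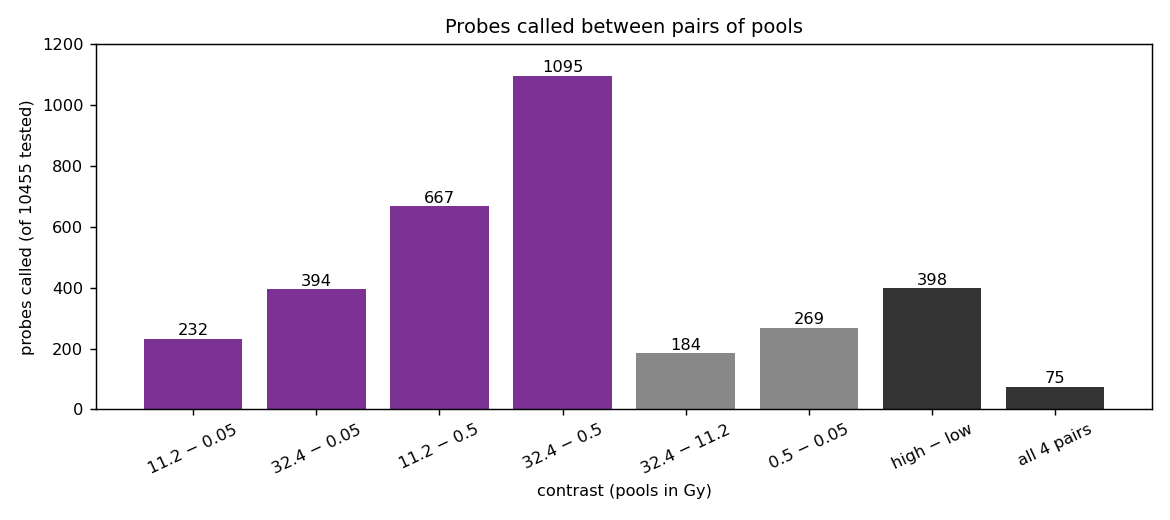
Number of probes called (adjusted p under 0.01 and at least 1.5-fold) of 10455 tested, on the vertical axis, for each contrast between pools; purple bars are the 4 pairwise contrasts of a high and a low pool, light grey bars contrasts within a pair, and dark grey bars the averaged contrast (398) and the probes called in all 4 pairs (75). The count was 232 for 11.2 against 0.05 Gy and 1095 for 32.4 against 0.5 Gy.

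The 12 genes with the largest differences among those higher in all 4 pairs were Retnla, Rnase2a, Hba-a1, Mfsd2a, Kng1, Hbb-b2, Ccl11, Ffar4, Alas2, Acot11, Slc27a2 and Fcna. Retnla, a secreted resistin-like protein of alternatively activated macrophages and fat tissue, had a log2 signal of 10.64, 10.99 and 11.28 (lowest, median and highest) on the 6 high arrays and of 8.29, 8.69 and 8.88 on the 6 low arrays. The groups of arrays did not overlap, and the difference was 2.35 ± 0.05 (SE), which is 5.09-fold (limma adjusted p = 1.62e-24). Rnase2a, an eosinophil-associated ribonuclease, stood at 7.41 ± 0.11 (SD, n = 3 arrays) and 6.91 ± 0.05 in the low pools and 8.89 ± 0.13 and 9.84 ± 0.15 in the high pools, a difference of 2.21 ± 0.07. Its lowest arrays were those of 0.5 Gy and its highest those of 32.4 Gy. The eosinophil attractant Ccl11 was 2.75-fold higher, and a second probe of the gene was called too, at a difference of 1.02. Fcna, a lectin that starts the complement cascade, was 2.56-fold higher. Kng1, the precursor of bradykinin, was 3.32-fold higher on 1 of its 2 probes and 0.39 on the other, which was not called. Other genes, chosen after their values were seen, moved the same way in all 4 pairs. They were the chemokine gene Ccl9 (1.03 ± 0.07), the mast cell carboxypeptidase gene Cpa3 (0.96 ± 0.07), the lysozyme gene Lyz1 (0.91 ± 0.06) and Ogn, a proteoglycan of connective tissue (1.24 ± 0.08).

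Of the 11 tested macrophage genes, 3 were higher and 1 was lower, with a median difference of 0.37 against −0.01 over all probes. Lyz2, the macrophage lysozyme, was at 9.05 ± 0.06 (SD, n = 3 arrays) and 9.17 ± 0.16 in the low pools and 10.10 ± 0.06 and 10.39 ± 0.07 in the high pools. It was called in all 4 pairs, at 1.14 ± 0.05. Lyz1 and Lyz2 are near-identical copies, and their probes may read each other's transcripts. The mannose receptor gene Mrc1 (0.63 ± 0.06) and the Fc receptor gene Fcgr3 (0.62 ± 0.05) were higher by the averaged contrast, and the endotoxin co-receptor gene Cd14 fell by 0.61 ± 0.06. Cd14 was highest in the 0.5 Gy pool, at 8.52 ± 0.08 against 7.66 ± 0.07 at 0.05 Gy. Without 0.5 Gy array 2 Mrc1 was not called, and without 32.4 Gy array 2 Cd14 was not called. Without the 32.4 Gy pool Mrc1 and Fcgr3 were not called, without the 0.5 Gy pool Mrc1 and Cd14 were not, and without the 0.05 Gy pool Fcgr3 was not. Neither Mrc1 nor Fcgr3 was called with 75th-percentile scaling or with no normalization. With 75th-percentile scaling 1 gene of the list was called higher. The 5 MHC class II genes tested had a median of 0.47, and none was called on the probe with the highest mean. Of the 3 probes of H2-Ab1, which codes for a chain of the class II molecule, 2 others were called higher, the largest difference being 0.98. Among 16 endothelial genes 1 was called, which is near the 3.81% of all probes. It was Ly6c1 (0.73 ± 0.05), a surface antigen of endothelium and of some leukocytes, and without the 32.4 Gy pool it was not called. The summed signal of the macrophage list was 2638 to 3057 on the low arrays and 3657 to 4371 on the high ones. The part of cell content in these differences was not tested.

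**Figure D2:**
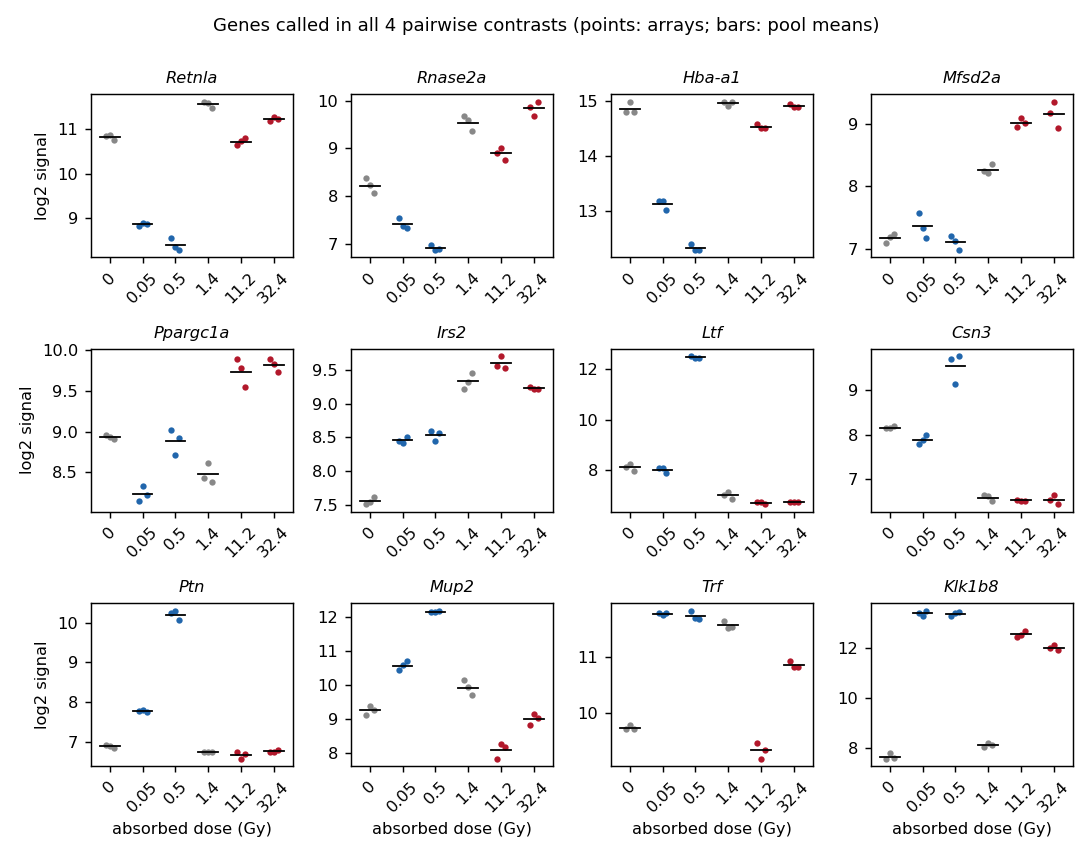
Quantile-normalized log2 signal (vertical axes) against absorbed dose in Gy (horizontal axes) for 12 genes called in all 4 pairwise contrasts; points are arrays, bars pool means, blue the low pools, red the high pools and grey the pools outside the comparison. Retnla was between 10.64 and 11.28 on the 6 high arrays and between 8.29 and 8.88 on the 6 low arrays, while Ltf reached 12.48 in the 0.5 Gy pool alone.

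Red cell genes were higher in both high pools. Of the 4 tested members of the erythrocyte list, 3 were called higher and all 3 of these in all 4 pairs, with a median of 1.51 over the list. The alpha-globin gene Hba-a1 was at 13.13 ± 0.09 (SD, n = 3 arrays) and 12.34 ± 0.05 in the low pools and 14.53 ± 0.04 and 14.90 ± 0.04 in the high pools. The 6 high arrays all lay above the 6 low arrays, and the difference was 1.98 ± 0.05, or 3.94-fold. Hbb-b2, a beta-globin gene, was 3.04-fold higher. Alas2, the erythroid enzyme that starts haem synthesis, was 2.68-fold higher, from 7.39 to 8.00 on the low arrays to 8.77 to 9.43 on the high arrays. Slc4a1, the anion exchanger of the red cell membrane, differed by 0.28 ± 0.06 and was not called. Globin genes have near-identical copies that a probe may not tell apart. The control and 1.4 Gy pools, at 14.85 ± 0.11 and 14.96 ± 0.04 for Hba-a1, were close to the high pools. Mice were killed by cardiac puncture, and how much blood remained in each pool was not tested.

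The promoters of 3 genes that were higher in the high pools are shown as examples chosen because each holds letters known to be bound by a factor that acts on genes of its kind. The sequences are the 250 bases before the start of transcription from the RefSeq table of build GRCm38.p6, 5′ to 3′ on the strand of the gene, with the match in capitals. AGATAA, a form of the GATA site of erythroid genes (TTATCT on the other strand), was searched in Alas2 (chrX:150547167-150547416, plus strand). CACGTG, the E-box, was searched in Irs2 (chr8:11008930-11009179, minus strand). TTCNNGAA, the core of the heat shock element, was searched in Hsph1 (chr5:149636337-149636586, minus strand).
Alas2: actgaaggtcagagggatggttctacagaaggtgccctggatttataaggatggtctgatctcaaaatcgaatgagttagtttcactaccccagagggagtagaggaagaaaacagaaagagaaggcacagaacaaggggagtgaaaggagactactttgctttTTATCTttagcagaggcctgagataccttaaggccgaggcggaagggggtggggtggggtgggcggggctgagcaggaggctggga
Irs2: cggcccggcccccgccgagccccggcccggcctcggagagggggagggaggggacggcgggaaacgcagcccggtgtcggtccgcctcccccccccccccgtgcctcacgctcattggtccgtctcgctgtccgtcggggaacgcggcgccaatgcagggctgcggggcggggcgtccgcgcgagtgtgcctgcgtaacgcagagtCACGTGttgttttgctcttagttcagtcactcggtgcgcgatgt
Hsph1: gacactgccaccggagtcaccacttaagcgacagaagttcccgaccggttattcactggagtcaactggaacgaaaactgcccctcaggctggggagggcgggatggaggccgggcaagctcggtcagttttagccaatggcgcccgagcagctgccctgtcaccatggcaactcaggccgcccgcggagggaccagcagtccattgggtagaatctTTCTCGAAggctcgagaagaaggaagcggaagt

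These letters are common. Both strands of 32851 promoters of 300 bases were searched, and AGATAA was in 11.2% of them, CACGTG in 7.15% and TTCNNGAA in 8.52%. The match began 86 bases before the start in Alas2, 44 in Irs2 and 33 in Hsph1. The GATA letters and these 3 genes were chosen after the values were seen, and a match is a description of the letters and not of a bound site. The 250 bases before the start of Hba-a1, searched in the same way, held no AGATAA. They hold TGATAA, another form of the GATA site, and such other forms were not searched. Among the brown fat genes called higher, 7 had a promoter in the table. Over its 300 bases, CACGTG and TTCNNGAA were each in 1 of the 7, Acot11, where TTCNNGAA lay outside the 250 bases before the start, and AGATAA was in 1, Cox7a1.

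All 10 tested brown fat genes were higher in the high pools, with a median of 1.01, and 3 of them were called in all 4 pairs. Ucp1, the uncoupling protein, was at 13.68 ± 0.10 (SD, n = 3 arrays) and 12.65 ± 0.18 in the low pools and 13.75 ± 0.19 and 14.13 ± 0.13 in the high pools. The 0.05 Gy pool thus lay beside the high pools, and the call (0.78 ± 0.07) rested on the 0.5 Gy pool. Cidea, a lipid droplet protein of brown fat, went from 11.88 to 12.72 on the low arrays to 13.17 to 13.25 on the high arrays and differed by 0.93 ± 0.05. The 3 members called in all 4 pairs were Slc27a2, an activating enzyme of very long fatty acids (1.39 ± 0.06), Cox7a1, a cytochrome oxidase subunit of brown fat and muscle (1.23 ± 0.05), and Ppargc1a, the coactivator that drives mitochondrial gene expression (1.22 ± 0.06). Cpt1b, the carnitine transferase that admits fatty acids to mitochondria, was 2.26-fold higher. A probe of the acyl-CoA thioesterase gene Acot11 was called in all 4 pairs at 1.40 ± 0.05. Ffar4, a receptor of long-chain fatty acids, was 2.70-fold higher in all 4 pairs.

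The brown fat list was lowest in the 0.5 Gy pool, where its summed signal was 21801 to 24928, against 42647 to 43470 at 0.05 Gy, 53717 to 55329 at 11.2 Gy and 61243 to 63341 at 32.4 Gy. Without the 0.5 Gy pool 3 of the 10 genes were called and the median was 0.51. Ucp1, Cidea and Cpt1b were not called then. Elovl3, which elongates fatty acids in brown fat, was the member nearest to the threshold, at 0.59 ± 0.05, and it was not called without 0.05 Gy array 2, 0.5 Gy array 1, 11.2 Gy array 1 or 32.4 Gy array 3, nor without the 0.5 or the 32.4 Gy pool. The controls and the 1.4 Gy pool held 66463 to 67960 and 64942 to 72472. Ppargc1a had another order. It was at 8.93 ± 0.02 in controls, 8.47 ± 0.12 in the 1.4 Gy pool, 8.23 ± 0.09 and 8.89 ± 0.16 in the low pools and 9.74 ± 0.18 and 9.82 ± 0.08 in the high pools. Both high pools were above every other pool, with no overlap of arrays.

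Mitochondrial enzymes of fuel oxidation followed. Of 34 tested genes of the citric acid cycle and fatty acid oxidation, 14 were higher, beside 2.23% of all probes, and none was lower. For 32 the difference was positive, and the median was 0.53. Idh3a, a subunit of isocitrate dehydrogenase, was at 9.82, 10.54 and 10.95 (lowest, median and highest) on the low arrays and 11.25, 11.41 and 11.48 on the high arrays, a difference of 0.95 ± 0.06. Etfa, which passes electrons from fatty acid oxidation to the respiratory chain, was 1.89-fold higher. Slc25a20, the carnitine carrier, was 1.82-fold higher, and Acadvl, the dehydrogenase of very long fatty acids, 1.68-fold. Without the 0.5 Gy pool 1 of the 34 genes was called, and without the 0.05 Gy pool 28 were. Respiratory chain genes moved less, and their counts of calls lay near the 3.81% called over all probes. For complex I the median was 0.26, with 32 of 33 differences positive and 2 called, Ndufv1 (0.65 ± 0.06) and Ndufa10 (0.59 ± 0.05). For complexes III to V the median was 0.19 and 2 of 32 were called, Uqcrc1 (0.76 ± 0.05) and Cox6b1 (0.62 ± 0.05). None of these 4 was called without the 0.5 Gy pool, nor Ndufa10 and Cox6b1 without the 32.4 Gy pool, and Ndufa10 lost its call in 6 of the 12 fits that left out 1 array. The median of 0.5 minus 0.05 Gy was −0.30 for both lists, which is larger in size than either high minus low median.

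**Figure D3:**
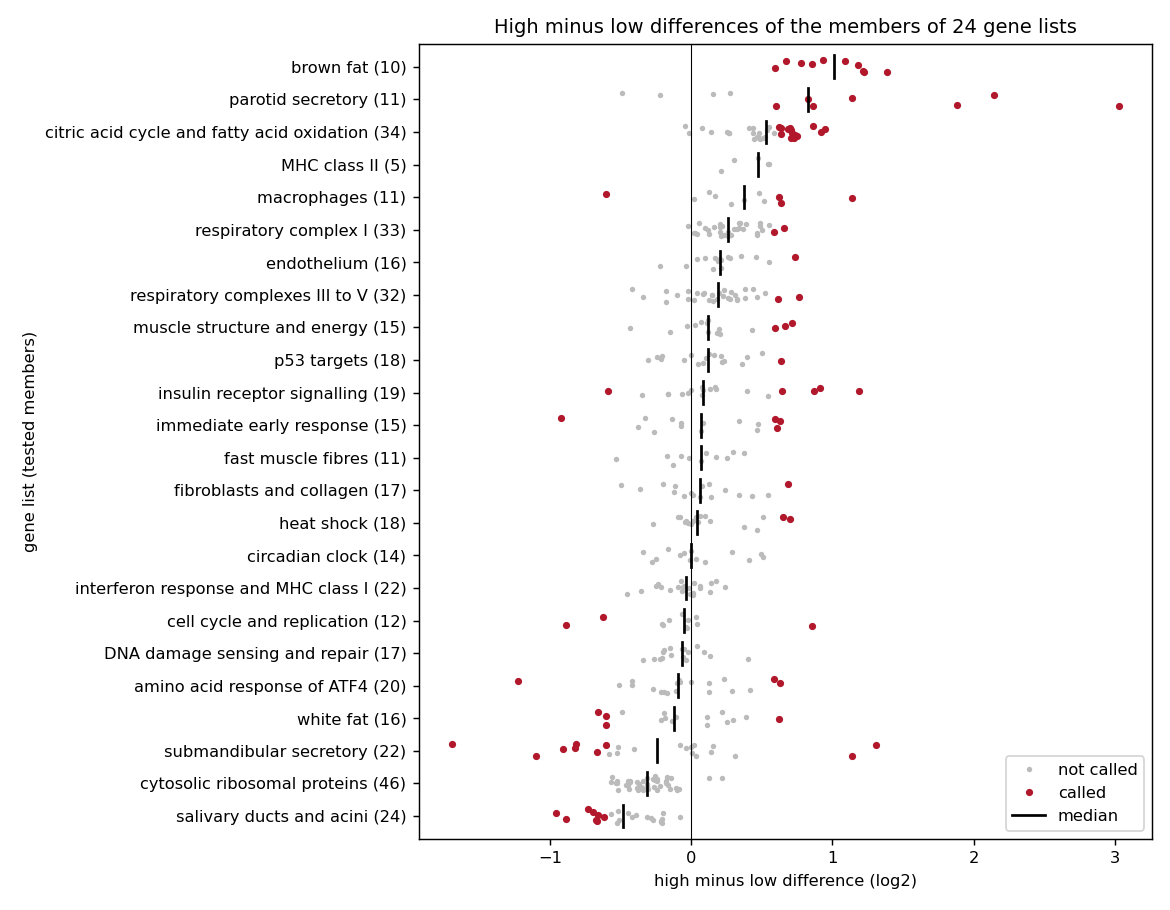
High minus low difference on the log2 scale (horizontal axis) of the tested members of 24 gene lists (vertical axis, number of tested members in brackets); red points were called, grey points were not, and black bars are list medians. Medians ran from 1.01 for brown fat and 0.53 for the citric acid cycle and fatty acid oxidation to −0.31 for cytosolic ribosomal proteins and −0.48 for salivary ducts and acini.

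Genes of insulin action and lipid supply included several that were called. Irs2, the insulin receptor substrate, was at 8.46 ± 0.05 (SD, n = 3 arrays) and 8.53 ± 0.08 in the low pools and 9.59 ± 0.09 and 9.23 ± 0.02 in the high pools, which is 1.88-fold in the averaged contrast and called in all 4 pairs. Its control pool was lower still, at 7.56 ± 0.05, and its 1.4 Gy pool was at 9.33 ± 0.12. Mfsd2a, a transporter of lysophospholipids, was at 7.18 ± 0.08 in controls, 7.36 ± 0.20 and 7.10 ± 0.11 in the low pools and 9.02 ± 0.07 and 9.16 ± 0.21 in the high pools, a difference of 1.86 ± 0.07 in the averaged contrast. The low pools were close to the controls and the high pools stood apart from both. Of 19 tested genes of the insulin list, 4 were higher and 1 was lower, with a median of 0.08. Besides Irs2 those higher were Pdk4, a kinase that shuts pyruvate out of oxidation (1.19 ± 0.11), Hk2, a hexokinase of muscle and fat (0.87 ± 0.05), and Slc2a4, the insulin-dependent glucose transporter (0.64 ± 0.06). Pdk4 at 0.05 Gy (11.55 ± 0.45) overlapped the high arrays. Without the 0.5 Gy pool Pdk4, Hk2 and Slc2a4 were not called, and without 0.05 Gy array 3 Slc2a4 was not. Slc2a4 was also not called with 75th-percentile scaling or with no normalization. Thrsp, a lipogenic gene under thyroid hormone control in liver and fat, was the 1 member of 6 on the thyroid hormone list that was called, at 0.72 ± 0.06 and in all 4 pairs. Coq10b, a ubiquinone-binding protein of mitochondria, was higher by 0.93 ± 0.12.

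The 12 genes with the largest differences among those lower in all 4 pairs were Ltf, Mup2, Mup6, Ptn, Csn3, Chil1, Trf, Col16a1, Chst1, Cyp2e1, Mup20 and Csn2. Ltf, the iron-binding lactoferrin of milk and other secretions, was at 8.00 ± 0.11 (SD, n = 3 arrays) at 0.05 Gy and 12.48 ± 0.04 at 0.5 Gy. It was not detected on the 6 high arrays. Against the mean log2 signal of both low pools it was at least 10.6-fold lower there (fitted difference −3.53 ± 0.05, limma adjusted p = 1.76e-28). A second Ltf probe differed by −0.24 and was not called. The bound sets the dim arrays at the lowest signal of a detected probe. For genes that were lower it is taken from the mean of both low pools and describes no single pool. The milk protein genes Csn3 and Csn2 were also undetected on all 6 high arrays and were at least 3.67-fold and 1.81-fold lower. Csn3 was higher at 0.5 Gy (9.53 ± 0.35) than at 0.05 Gy (7.89 ± 0.09), whereas Csn2 was higher at 0.05 Gy (8.12 ± 0.19) than at 0.5 Gy (7.26 ± 0.12). Btn1a1, a protein of the milk fat globule that was chosen after its values were seen and was not called in all 4 pairs, was at 8.16 ± 0.05 at 0.5 Gy and between 6.55 and 6.80 in every other pool. Ltf and Csn3 were detected in controls, at 8.11 ± 0.12 and 8.16 ± 0.02, and Csn2 was not.

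Further genes were highest in the 0.5 Gy pool. Ptn, the growth factor pleiotrophin, was at 7.79 ± 0.02 (SD, n = 3 arrays) at 0.05 Gy and 10.19 ± 0.12 at 0.5 Gy. It was not detected on the high arrays, which gives at least 4.47-fold against the mean of both low pools. Chil1, a secreted chitinase-like protein, was at 7.53 ± 0.08 and 9.78 ± 0.14 in the low pools. The high pools were at least 3.55-fold below the mean of both. Col16a1, a fibril-associated collagen, was 2.68-fold lower. By the averaged contrast, but not in all 4 pairs, Stc2, a secreted glycoprotein, fell by 1.23 ± 0.05. The transcription factor gene Gata3, not detected on the high arrays and not called in all 4 pairs, was at least 1.74-fold below the mean of both low pools. At 0.05 Gy it was at 6.88 ± 0.11 and was detected on 1 of 3 arrays. Stc2 and Gata3 had their highest signal at 0.5 Gy, 8.68 ± 0.07 and 8.37 ± 0.03, and without that pool neither was called, nor was Btn1a1. Ptn, Chil1, Ltf, Csn3 and Col16a1 kept their call without the 0.5 Gy pool.

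Trf, the iron carrier transferrin, was at 11.79 ± 0.02 and 11.75 ± 0.08 in the low pools, 9.32 ± 0.14 at 11.2 Gy and 10.86 ± 0.06 at 32.4 Gy (SD, n = 3 arrays), a difference of −1.68 ± 0.05. The low pools were alike, and the high pools lay below them at unequal distances. Chst1, a sulfotransferase that modifies keratan sulfate, and Cyp2e1, an ethanol-metabolising cytochrome, were also lowest at 11.2 Gy among the 4 pools and were 2.51-fold and 2.42-fold lower. The major urinary protein genes, which code for pheromone carriers, were lower too. Mup2 fell by 2.83 ± 0.08 on 1 probe and differed by −0.55 on another, which was not called, Mup6 by 2.37 ± 0.07 and Mup20 by 1.23 ± 0.12. The Mup genes are near-identical copies, so their probes may share transcripts, and the 6 high and 6 low arrays of Mup20 touched, at 8.90 on both sides. The osteocalcin genes Bglap and Bglap2, also near-identical and chosen after their values were seen, fell by 1.11 ± 0.06 and 1.03 ± 0.07. Rps3a1, a ribosomal protein gene, fell by 1.08 ± 0.08 in all 4 pairs. Gsta3, a glutathione transferase, was 2.32-fold lower by the averaged contrast on 1 probe, and its other probe, at −0.11, was not called. In the deposited normalized table Bglap, Bglap2, Rps3a1 and Gsta3 were not called.

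Genes of salivary ducts and acini were lower in the high pools. Of 24 tested, 8 were called lower, beside 1.58% of all probes, and none higher. All 24 differences were negative and the median was −0.48. Elf5, a transcription factor of glandular epithelium, was at 9.88 ± 0.07 (SD, n = 3 arrays) and 10.21 ± 0.08 in the low pools and 9.39 ± 0.06 and 8.79 ± 0.12 in the high pools, a difference of −0.96 ± 0.05. The pools lay in the same order for the keratin genes Krt8 (−0.89 ± 0.05) and Krt18 (−0.73 ± 0.06), for the tight junction gene Cldn4 (−0.70 ± 0.06) and for the water channel gene Aqp5 (−0.67 ± 0.07), which was chosen after its values were seen. Without the 0.5 Gy pool 2 of the 24 were called, and without the 32.4 Gy pool 3. Krt18, Cldn4 and Aqp5 were not called in either case. With the deposited normalized table limma called 0 of the 24 lower and the list median was 0.03, against 0.44 for all probes. The summed signal of the list was 29404 to 35724 on the low arrays, 25921 to 27934 at 11.2 Gy and 19941 to 20374 at 32.4 Gy. It was lower in the pools outside the comparison, at 11526 to 11761 in controls and 6529 to 6606 at 1.4 Gy.

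Secretory genes of the submandibular gland were mixed. Of 22 tested, 7 were lower and 2 higher, with a median of −0.24 that became 0.11 with 75th-percentile scaling and −0.02 without the 32.4 Gy pool. With the pool as a random block 3 were called lower, and without the 0.5 or the 32.4 Gy pool 4 were. All 7 that were lower were kallikreins of the Klk1b group, and those higher were Dcpp1 and Smr3a, the latter also on the parotid list. Klk1b1 was at 11.01 ± 0.05 and 8.86 ± 0.13 in the low pools and 8.59 ± 0.11 and 7.89 ± 0.07 in the high pools (SD, n = 3 arrays), a difference of −1.69 ± 0.06 with the 0.05 Gy pool far above the other 3. Klk1b8 fell by 1.10 ± 0.06 and was the only kallikrein called in all 4 pairs. In controls it was at 7.65 ± 0.13, below all 4 compared pools. The Klk1b genes are close copies, so that their probes are not independent.

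Parotid secretory genes showed a difference carried by 1 pool. Of 11 tested, 7 were higher, the median was 0.83, and none was called in all 4 pairs. Chia1, an acidic chitinase, was not detected at 0.05, 0.5 or 32.4 Gy, where its mean signal was 6.47, 6.48 and 6.51, and was at 12.50 ± 0.04 (SD, n = 3 arrays) at 11.2 Gy and 14.86 ± 0.04 in controls. The averaged contrast gave at least 6.43-fold, which describes no single pool. Cst10, a cystatin, and Dnase1 followed the same pattern, at 10.88 ± 0.07 and 10.44 ± 0.04 at 11.2 Gy against 6.60 ± 0.10 and 7.24 ± 0.05 at 32.4 Gy. Smr3a, which is on both lists and counted in both, and Dcpp1 of the submandibular list were at 8.78 ± 0.14 and 9.88 ± 0.09 at 11.2 Gy. At 32.4 Gy Smr3a and Dcpp1 were at 6.65 ± 0.08 and 6.64 ± 0.18. Without the 11.2 Gy pool no parotid gene was called higher by limma, the list median was 0.04 and the difference for Dcpp1 became −0.31. With the pool as a random block none of these genes was called either.

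Muscle genes stood out in the other high pool. Of 15 tested genes of muscle structure and energy 3 were higher, the myoglobin gene Mb (0.59 ± 0.05), the sarcomere gene Tcap (0.71 ± 0.06) and the mitochondrial creatine kinase gene Ckmt2 (0.66 ± 0.06). Mb was at 10.15 ± 0.01 and 9.43 ± 0.03 in the low pools, 9.20 ± 0.05 at 11.2 Gy and 11.58 ± 0.08 at 32.4 Gy (SD, n = 3 arrays). The 11.2 Gy arrays lay below the low arrays and the 32.4 Gy arrays above them. Without the 32.4 Gy pool the differences were −0.60, −0.17 and −0.29 for Mb, Tcap and Ckmt2. Ckmt2 and Mb were also not called without the 0.5 Gy pool. Mb was not called without 11.2 Gy array 2 or 32.4 Gy array 3, and with the pool as a random block no gene of the list was called. The summed signal of the list was 19381 to 19736 at 32.4 Gy and 8044 to 8370 at 11.2 Gy.

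**Figure D4:**
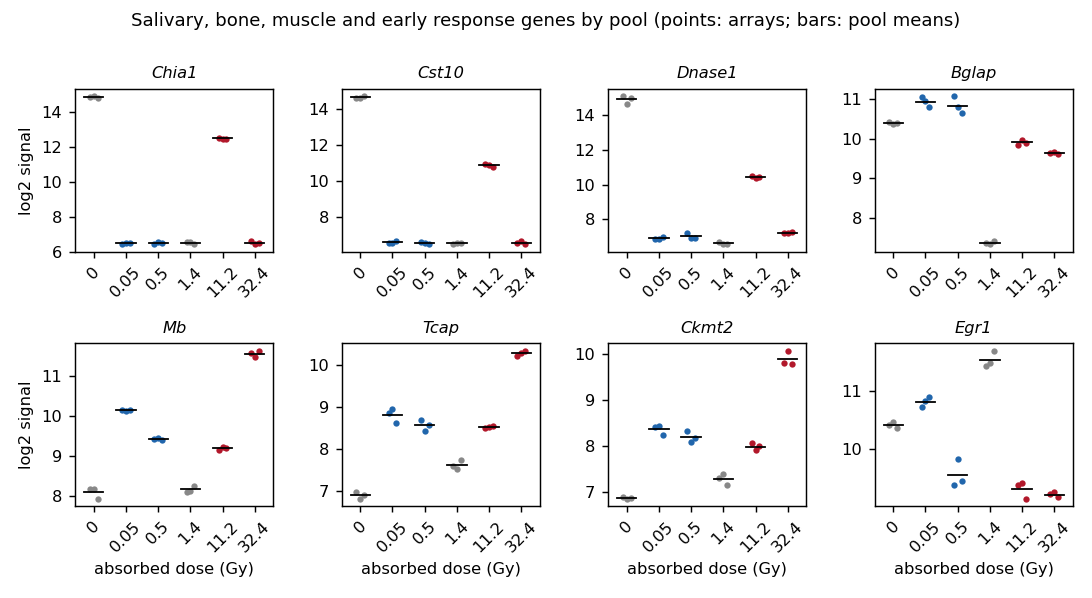
Quantile-normalized log2 signal (vertical axes) against absorbed dose in Gy (horizontal axes) for 8 genes; points are arrays, bars pool means, blue the low pools, red the high pools and grey the pools outside the comparison. Chia1 was at 12.50 at 11.2 Gy and 6.51 at 32.4 Gy, and Mb was at 9.20 at 11.2 Gy and 11.58 at 32.4 Gy.

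White fat genes did not move together. Of 16 tested, 1 was higher and 3 were lower, with a median of −0.12. Pparg, the master regulator of fat cell differentiation, was higher by 0.62 ± 0.06, while the carbonic anhydrase gene Car3 (−0.66 ± 0.06), the leptin gene Lep (−0.60 ± 0.05) and the lipid droplet gene Plin4 (−0.60 ± 0.05) were lower. The 3 that were lower had their lowest signal at 11.2 Gy, for Lep 7.51 ± 0.07 against 8.51 ± 0.04 at 32.4 Gy (SD, n = 3 arrays). None of them was called without the 11.2 Gy pool. Car3, Lep and Pparg were not called without the 0.5 Gy pool, nor Plin4 without the 0.05 Gy pool. Pparg was not called without the 32.4 Gy pool or without 32.4 Gy array 2, Lep was not called without 0.05 Gy array 2 or 0.5 Gy array 2, and Plin4 was not called without 0.5 Gy array 1. With 75th-percentile scaling or no normalization Pparg was not called, nor Car3, Lep and Plin4 in the deposited normalized table. Cytosolic ribosomal protein genes were mostly lower by less than 1.5-fold. Of the 46 tested on the list, which does not hold the called gene Rps3a1, none was called, 2 had a positive difference, the median was −0.31, and for 23 of the 46 the high arrays lay below the low arrays without overlap, against 6.26% of all probes. Rplp1, an acidic protein of the large subunit, was at 14.31 to 14.47 on the high arrays and 14.61 to 14.91 on the low arrays.

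Of 18 tested p53 targets 1 was called, beside 3.81% of all probes. It was Plk3, a polo-like kinase, at 0.63 ± 0.05, and the median of the list was 0.11. Cdkn1a was at 8.02 and 7.62 ± 0.02 in the low pools, 8.05 ± 0.11 at 11.2 Gy and 8.39 ± 0.12 at 32.4 Gy (SD, n = 3 arrays). The difference of 0.40 ± 0.05 was under the 1.5-fold limit, and the 0.05 and 11.2 Gy pools were alike. Phlda3, a p53-induced inhibitor of Akt, differed by 0.36 ± 0.05 on its brighter probe, which was not called, and by 0.65 on the other, which was called higher. None of 17 tested genes of DNA damage sensing and repair was called (median −0.06), and at 3.81% of all probes a list of this size may hold none. In the cell cycle list, 1 of 12 was higher, the inhibitor gene Cdkn1c (0.86 ± 0.06), and 2 were lower, the cyclin genes Ccnd2 (−0.89 ± 0.08) and Ccnd1 (−0.62 ± 0.05). Plk3 and Ccnd1 were not called without the 0.5 or the 32.4 Gy pool, nor Cdkn1c without the 0.5 Gy pool. Plk3 was also not called with 75th-percentile scaling or with no normalization. In the deposited normalized table Ccnd1 differed by 0.0060 and neither cyclin gene was called.

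Of 15 immediate early genes 3 were higher, Klf2 (0.63 ± 0.06), Nr4a2 (0.60 ± 0.06) and Ier3 (0.59 ± 0.05), and 1 was lower, Egr1 (−0.93 ± 0.07). Egr1, a zinc finger factor induced within minutes by growth factors and stress, was at 10.82 ± 0.09 and 9.55 ± 0.25 in the low pools and 9.31 ± 0.15 and 9.21 ± 0.04 in the high pools (SD, n = 3 arrays). The 0.05 Gy pool stood apart, and without it Egr1 was not called. Klf2, Nr4a2 and Ier3 were not called without the 11.2 Gy pool, Nr4a2 and Ier3 not without the 0.05 Gy pool, Nr4a2 not without 32.4 Gy array 1, and Ier3 not without 0.05 Gy array 3 or 11.2 Gy array 1. With no normalization none of these 3 was called, nor Klf2 and Ier3 with 75th-percentile scaling. Egr1 was not called in the deposited normalized table. Of 18 heat shock genes 2 were higher, both chaperone genes, Hsph1 (0.70 ± 0.06) and Dnajb1 (0.65 ± 0.06), with a median of 0.04 for the list. Hsph1 was at 9.37 ± 0.10 in controls, above all 4 compared pools. It was not called without the 32.4 Gy pool, nor Dnajb1 without the 0.05 Gy pool. With no normalization neither gene was called, nor Dnajb1 with 75th-percentile scaling. None of 22 interferon response genes and none of 14 clock genes was called. Of all probes 3.81% were called, and at that share lists of this size may hold none.

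The pools outside the comparison lay nearer to the high pools. In the deposited normalized table the low pools form an array set apart from all other pools. Low dose and that array set cannot be told apart in the shares that follow. The mean of the non-irradiated controls was closer to the high than to the low mean for 71.6% of all tested probes, for 91.8% of the probes called higher and for 93.9% of those called lower. For the 1.4 Gy pool the shares were 71.8%, 93.1% and 78.2%. Retnla, at 10.83 ± 0.06 (SD, n = 3 arrays) in controls and 11.56 ± 0.08 at 1.4 Gy, followed this order. Trf did so in controls, at 9.73 ± 0.04, but at 1.4 Gy it was at 11.58 ± 0.08, beside the low pools. Of the 50 probes higher in all 4 pairs, 7 had controls nearer to the low pools. They belong to Rnase2a, Mfsd2a, Ogn, Ppargc1a, Coq10b, Irs2 and Cpa3. Of the 25 lower probes 4 did, for Csn3, Bglap2 and, with 2 probes, Bglap. The mean of both high pools minus controls was 1.91 for Mfsd2a, 1.85 for Irs2, 0.84 for Ppargc1a and −1.62 for Csn3.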

How the data were processed

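Total RNA of pooled thyroids was labelled with biotin and hybridised to MouseRef-8 beadchips. The deposited non-normalized table holds the raw signal intensity of each probe (BeadScan 3.5.31.17122) with its detection p-value. Background subtraction before deposit is not given in the sources used here. A second table deposited by the authors holds intensities after quantile normalization, and was used as an alternative only. From its values, the arrays of 0.05 and 0.5 Gy and the other 12 arrays have 1 distribution each, with upper quartiles of 176.2 and 241.9.

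Raw intensities of the 18 arrays were log2-transformed and quantile-normalized together (limma 3.58.1, R 4.3.3). The authors' normalized table holds 815 further probes, counted as controls, that the non-normalized one does not hold. Those were left out. Probes detected at p under 0.01 on all 3 arrays of at least 1 compared pool were kept. A mean per group was fitted over the 18 arrays, the contrasts were tested with lmFit and eBayes, and p-values were adjusted by Benjamini-Hochberg over 10455 probes. No background was removed, so fold changes of dim probes are understated. The standard error of the called differences was 0.05 to 0.16. An exact permutation of 2 against 2 pools cannot give a two-sided p below 0.333. On simulated data for this contrast and 10455 probes, 0 of 50 changes of 1.2-fold, 24 of 50 of 1.5-fold and all 50 of 2-fold and of 4-fold were called, with 0 false calls. The simulated arrays had independent noise and no spread between pools. The 0 false calls therefore cannot tell how many of the real calls come from differences between pools.

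Probes were named from the platform annotation and updated to RefSeq symbols (GRCm38.p6). Of the 25697 probes 23978 had 1 gene symbol and 1719 had none, and 584 tested probes were unnamed. Gene lists used 1 probe per gene, that with the highest mean. Genes are named if they are among the 12 with the largest positive or negative difference in all 4 pairs, among up to 4 called members per list with the largest difference, among defining thyroid genes, or among the brightest uncalled members; others are marked as chosen after their values were seen, as are Ucp1, Cidea, Elovl3, Cdkn1a, Coq10b and Rps3a1. The comparison, the lists and the rules were chosen with earlier results of these data known. Promoters came from RefSeq, with an entry for 74 of the 99 genes whose values are given. Alternatives comprised 5 scalings, other filters, thresholds and error terms, and fits without each array and pool. Plots were made with matplotlib 3.10.9.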

Additional observations from a re-analysis of the deposited data

Results flagged for a closer look

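The 1.4 Gy pool was outside the comparison. For 10 of the 99 genes whose values are given, its 3 arrays all lay above the highest of the 12 compared arrays and its mean was called above the controls by limma. The difference from the controls was 1.81 for Cyp2e1, 1.62 for Car3, 1.18 for Ogn, 1.13 for Egr1 and 0.77 for Lep. It was 0.87 for Cpa3, 0.85 for Ccl9, 0.75 for Mrc1, 0.73 for Retnla and 0.71 for Fcna. Cyp2e1, Car3, Lep and Egr1 were lower in the high than in the low pools and the other 6 were higher. The control and 1.4 Gy pools were normalized by the authors with the high pools. Groups of 3 arrays were not examined for single outlying arrays.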

How the results depend on the processing

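With the deposited normalized table there were 3173 calls, 3142 higher and 31 lower (99.0% higher), and 1702 in all 4 pairs. Without normalization there were 607, 100 higher and 507 lower (16.5% higher). With 75th-percentile scaling 45.8% of the calls were higher. With neqc background correction there were 1145 calls, 614 higher and 531 lower, with 224 in all 4 pairs. A 2-fold limit left 72, 40 and 32, with 14 in all 4 pairs. Pool means as 4 values gave 0, 0 and 0. Leaving out the 0.05 Gy pool gave 777, 434 and 343 calls, leaving out the 0.5 Gy pool 219, 120 and 99, and leaving out the 11.2 Gy pool 648, with 304 lower. The cause of these shifts was not tested. Of the 398 calls, 116 held in every fit without 1 pool, 330 in every fit without 1 array and 130 under all 5 other scalings. With the pool as a random block 313 probes were called.

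Of the 94 called genes with values given, 12 lost the call without some 1 array, 49 without some 1 pool, 39 under some other scaling and 19 with the pool as a random block. The sign turned for Ccnd1 with the deposited normalized table (0.0060), for Dcpp1 without the 11.2 Gy pool (−0.31), and for Tcap (−0.17), Ckmt2 (−0.29) and Mb (−0.60) without the 32.4 Gy pool. The correlation of deviations between arrays of different pools was −0.04 to 0.30 for equal array numbers and −0.26 to 0.15 for others. The ranges overlap, the first lies higher, and what an array number stands for was not tested. With the replicate block 398 probes were called. No background correction limits what dim probes can show.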

Other observations

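Some lists of other pathways held single called genes. Of 20 genes of the amino acid response of ATF4, Cebpb, a transcription factor of fat cell differentiation, was higher by 0.63 ± 0.05 and the lipoprotein receptor gene Vldlr by 0.59 ± 0.06, while Stc2 was lower. Vldlr was at the threshold and lost its call in 5 of the 12 fits without 1 array, and neither gene was called without the 0.5 Gy pool, nor Vldlr without the 11.2 Gy pool. Of 12 tested potassium channel genes, Kcnk3, a leak channel of brown fat and other tissues, was higher by 0.68 ± 0.05 and Kcnk1, a leak channel of epithelia, fell by 0.68 ± 0.07. Without the 0.5 Gy pool neither was called, and without the 32.4 Gy pool Kcnk1 was not. In the collagen list 1 of 17 genes was higher, the microfibril gene Mfap5, by 0.69 ± 0.06. None of 16 cholesterol synthesis genes and none of 21 genes of folding in the endoplasmic reticulum was called. With 3.81% of all probes called, lists of this size may hold none.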
